A study of Homo sapiens with 6 samples.

Results

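The endoplasmic reticulum (ER) is where secreted and membrane proteins are folded, and the 35 genes described here encode its chaperones, oxidoreductases and quality control proteins, and the sensors of the unfolded protein response. They were picked by symbol as known ER folding and stress genes. The rule uses no measured value, but the list was drawn up with earlier results of these data known. All 35 were among the 60664 genes of the deposited counts, and all 35 had enough reads to be tested. The list holds 12 chaperones and their cofactors, 6 oxidoreductases, 9 genes of ER-associated degradation (ERAD), 4 sensors and transcription factors, 2 genes of protein entry and export, and 2 ER prolyl isomerases.

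RNA was sequenced from SiHa PR cells, the parental SiHa cells that the study compares elsewhere with lymph node metastatic derivatives. SiHa is an established human cervical squamous carcinoma line. The control group was SiHa PR (n = 3), which the labels name without a vector, and the other group was SiHa PR P4HA3 (n = 3), which carried P4HA3 overexpression on the same background. The study's methods describe both a constitutive and a doxycycline-inducible lentiviral P4HA3 construct. They do not say which was in the sequenced cells, nor whether the cells were a pool or 1 clone. Nothing says that the samples of a group came from separate cultures, so p-values measure only the spread between these samples, which may be technical.

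P4HA3 is a catalytic alpha subunit of prolyl 4-hydroxylase, an ER enzyme that hydroxylates prolines of procollagen and is held in the ER by its beta subunit, the protein disulfide isomerase P4HB. When unfolded proteins accumulate in the ER, the chaperone BiP is drawn away from 3 membrane sensors, ATF6, IRE1 (the product of ERN1) and PERK (the product of EIF2AK3). ATF6 is then cut to release a transcription factor, IRE1 splices XBP1 mRNA into a form that encodes another, and PERK slows translation and favours that of ATF4. ATF6 and spliced XBP1 act on short promoter elements of chaperone and ERAD genes. The comparison between the groups asks whether overexpression of an ER-resident hydroxylase was accompanied by higher mRNA of this machinery. Gene counts do not show P4HA3 protein in the ER, XBP1 splicing, ATF6 cleavage or PERK activity.

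The promoter elements are shown because the results on the chaperones and sensors refer back to them. The window searched ran from 250 bases before to 50 bases after each start site in the RefSeq promoters (GRCh38.p14), on both strands, and 29 of the 35 genes were in that set (PDIA3, DERL1, DERL3, SEC24D, FKBP10 and FKBP14 were not). The ER stress element ERSE was searched as CCAAT followed, after any 9 bases, by CCACG, ERSE-II as ATTGG followed, after any 1 base, by CCACG, and the unfolded protein response element UPRE as TGACGTGG. ERSE was found in 8 of the 29 genes (27.6%) and in 25 of all 27305 genes (0.0916%), and ERSE-II in 3 (10.3%) against 19 of all genes (0.0696%). UPRE was found in 2 (6.9%), DNAJC10 and HYOU1, against 253 of all genes (0.927%). Of the tested genes in that set, 0.146% carried ERSE, 0.137% ERSE-II and 1.19% UPRE. The list was picked as known ER folding and stress genes, so these shares describe the list and test nothing. The matches to ERSE and ERSE-II are printed below 5′ to 3′ on the strand that reads the element forward. Capitals mark the letters fixed by the search and lower case the free positions.
HSPA5, chr9:125241391-125241409: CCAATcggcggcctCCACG
HSP90B1, chr12:103930216-103930234: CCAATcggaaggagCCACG
HSP90B1, chr12:103930321-103930339: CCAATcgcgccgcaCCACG
CANX, chr5:179698778-179698796: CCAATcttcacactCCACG
CRELD2, chr22:49918554-49918572: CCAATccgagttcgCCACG
CALR, chr19:12938384-12938402: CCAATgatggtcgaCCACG
PDIA6, chr2:10812853-10812871: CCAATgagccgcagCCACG
ERO1B, chr1:236282183-236282201: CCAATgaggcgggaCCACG
XBP1, chr22:28800603-28800621: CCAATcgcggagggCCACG
HERPUD1, chr16:56932025-56932035: ATTGGgCCACG
HYOU1, chr11:119057380-119057390: ATTGGaCCACG
HYOU1, chr11:119057274-119057284: ATTGGaCCACG
SDF2L1, chr22:21642114-21642124: ATTGGtCCACG

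The ERSE match of HSPA5 begins 66 bases before its start site, and that of XBP1 begins 52 bases before. CANX has 4 start sites in the set, and its single match lies in the window of 3 of them. The upstream ERSE-II match of HYOU1 overlaps its UPRE match. A match is a run of letters and not a measured binding site.

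The libraries held between 21773488 and 24589095 counts in control cells and between 22160298 and 24939948 with P4HA3 overexpression. Epithelial identity was checked with 7 markers, whose summed level was 2564 to 2895 CPM (counts scaled to the normalized library size) in control cells and 2322 to 2620 CPM with overexpression, and of which KRT5 and TP63 were below 1 CPM in every library. KRT8 and KRT18 made up most of that sum, with means of 1817 and 942 CPM in control cells. CDH1, EPCAM and KRT19 averaged 16.5, 5.77 and 0.841 CPM there. The growth protocol in the labels describes uterine smooth muscle, but MYH11, DES and CNN1 were below 1 CPM in every library, and the 8 smooth muscle and fibroblast markers together reached 155 to 163 CPM in control cells and 135 to 164 CPM with overexpression. The rest of the 8, COL1A2, COL1A1, COL3A1, TAGLN and ACTA2, averaged 62.9, 61.7, 17.5, 8.84 and 7.78 CPM in control cells. All 3 leukocyte markers were below 1 CPM in every library, and the 3 endothelial markers together reached at most 3.47 CPM. Of these markers, KRT18, CDH1 and PECAM1 were called lower and TAGLN higher with overexpression, and their part in the results was not tested. P4HA3 itself was at 3.53, 2.91 and 3.80 CPM in control replicates 1 to 3 and at 1934, 1991 and 1936 CPM with overexpression, a log2 fold change of 9.15 ± 0.101 (SE). In these bulk samples, fewer cells expressing a gene and less RNA per cell cannot be told apart.

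With P4HA3 overexpression, 17 of the 35 genes were higher and 1 was lower (48.6% and 2.86%), against 9.36% and 11.4% of all 15130 genes tested. Because earlier results were known when the list was drawn up, these shares are a description of the list. A gene was called when its p from the quasi-likelihood test of edgeR, adjusted by the Benjamini-Hochberg method over all genes tested, was under 0.05, which 20.8% of all genes were in either direction. At an unadjusted p under 0.05, 23 of the 35 were higher and 2 lower, and 38.7% of all genes passed in either direction. The rise was led by the ER chaperones HSP90B1, HSPA5, DNAJC3 and CANX and the oxidoreductase PDIA4, with the ERAD genes DERL3 and SEL1L and the coat protein SEC24D at similar sizes. The median log2 fold change of the 35 was 0.23, against 0.01 over all genes tested. By sign, 30 of the 35 log2 fold changes were positive and 5 negative, and they ran from -0.51 to 0.77. The sensors ERN1 and EIF2AK3 and the transcription factor XBP1 were not among the genes called higher.

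In 23 of the 35 genes every overexpression library was above every control library, and in 2, XBP1 and FKBP10, every one was below. Over all genes tested, 19.7% did not overlap in the higher direction and 20.4% in the lower. The median SE of the 35 log2 fold changes was 0.07, against 0.10 over all genes, which include many of lower level. When only genes that averaged 10 CPM or more were counted, 16 of 33 (48.5%) were higher and 0 lower by edgeR, against 13.5% and 13.3% of all 9238 such genes. Of the 33, XBP1 alone had a negative change with an unadjusted p under 0.05.

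**Figure D1:**
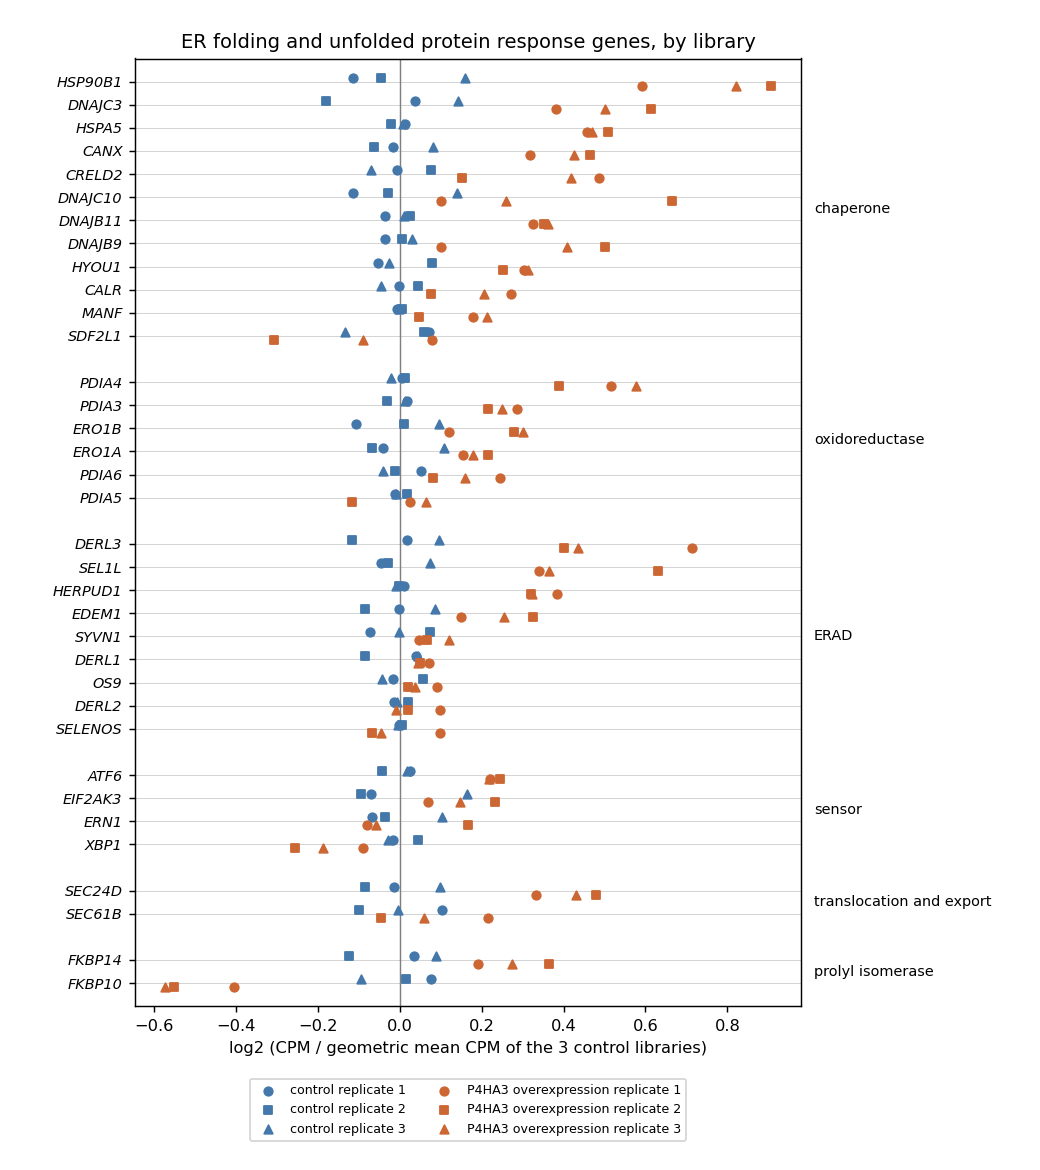
Level of each of the 35 genes in each library, as log2 of its CPM over the geometric mean CPM of the 3 control libraries, grouped by role (blue, control; orange, P4HA3 overexpression; circle, square and triangle, replicates 1, 2 and 3). The orange points lie to the right of all blue points in 23 genes and to the left in XBP1 and FKBP10.

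The summed level of the 35 genes was 8176 ± 47.4 CPM in the 3 control libraries and 10238 ± 78.9 CPM with overexpression (mean ± SD, n = 3), 1.25 times as high. The genes took between 0.797% and 0.833% of all counts in control libraries and between 1.01% and 1.05% with overexpression. HSPA5 alone made up 28.7% of the summed difference, and HSPA5, HSP90B1, CANX and PDIA4 together made up 65.1%. Per kilobase of transcript, CALR was the most abundant of the 35 in control cells (617 CPM per kb), followed by HSPA5 (383), PDIA6 (228) and PDIA3 (214), and DERL3 was the lowest (1.75). Of these 5 genes, HSPA5, PDIA3 and DERL3 passed the test and CALR and PDIA6 did not.

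The libraries also differed in how gene level followed GC content. The log2 fold changes of 15107 genes had a Spearman rho of -0.58 with the GC content of their transcripts, and those of the 35 genes a rho of -0.29 (across genes, which are not independent and share the same libraries). Each result was therefore also computed with an offset that removes every library's trend on GC content and transcript length. It removes any part of the group difference that follows these properties, whatever its source. With it, 1603 of all genes tested were higher and 1202 lower, against 1416 and 1731 without it. Of the 35 genes, 18 were then higher and 1, XBP1, was lower (10.6% and 7.94% of all genes), and the median log2 fold change was 0.15. The rho of the 35 with GC content was then 0.34, so their corrected changes tended to rise with GC content. The correction kept 13 of the 17 calls, ended those of PDIA3, ATF6, DNAJB9 and FKBP14, and added CALR, MANF, SDF2L1, OS9 and SYVN1.

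**Figure D2:**
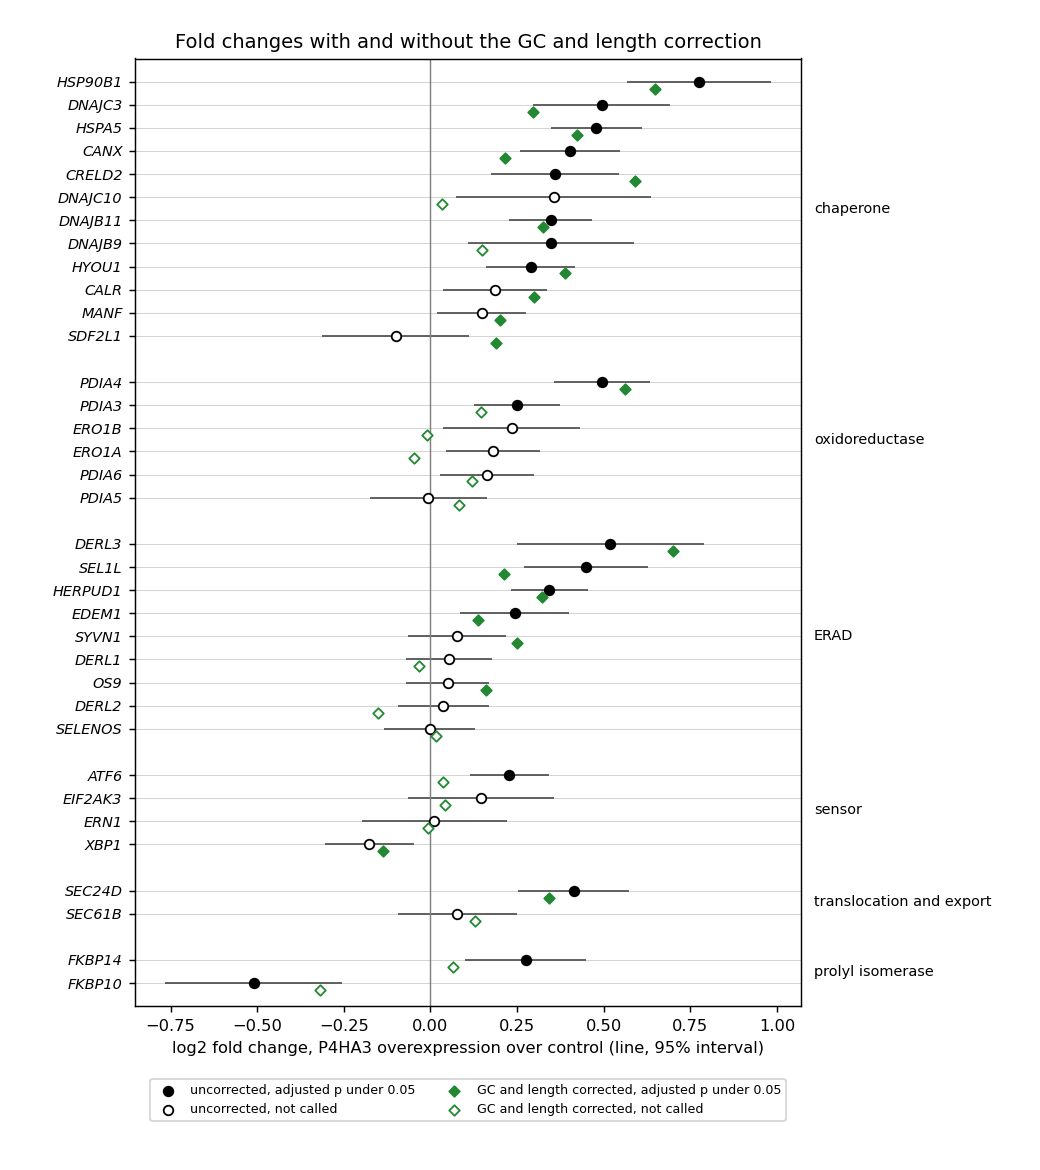
Log2 fold change of each gene with P4HA3 overexpression over control, from edgeR (circle, with the 95% interval as a line) and with the GC content and length correction (green diamond); filled symbols have an adjusted p under 0.05. HSP90B1 is farthest to the right (0.77 uncorrected, 0.65 corrected) and FKBP10 farthest to the left (-0.51 and -0.32).

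Of the 17 genes called higher 8 were chaperones, and of the 12 chaperones 8 were higher and 0 lower, with a median log2 fold change of 0.35. The 8 called were 66.7% of the 12, against 20.8% of all genes tested in either direction. An unadjusted p under 0.05 was found in 11 of the 12, against 38.7% of all genes. HSPA5 encodes BiP, the Hsp70 of the ER lumen and the chaperone whose release from the sensors starts the unfolded protein response. It was at 1515, 1479 and 1511 CPM in control replicates 1 to 3 and at 2062, 2137 and 2079 CPM with P4HA3 overexpression. The groups stood far apart next to the spread within each, and HSPA5 rose by 0.48 ± 0.0589 on the log2 scale (SE, adjusted p = 0.00127). HSP90B1, which encodes the ER Hsp90 chaperone GRP94, was at 415, 435 and 501 CPM and at 677, 840.5 and 793 CPM. It varied more within both groups but without overlap, and its log2 fold change of 0.77 ± 0.0935 (adjusted p = 0.00116) was the largest of the 35. Both genes carry ERSE in the promoter window, HSP90B1 at 2 positions.

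**Figure D3:**
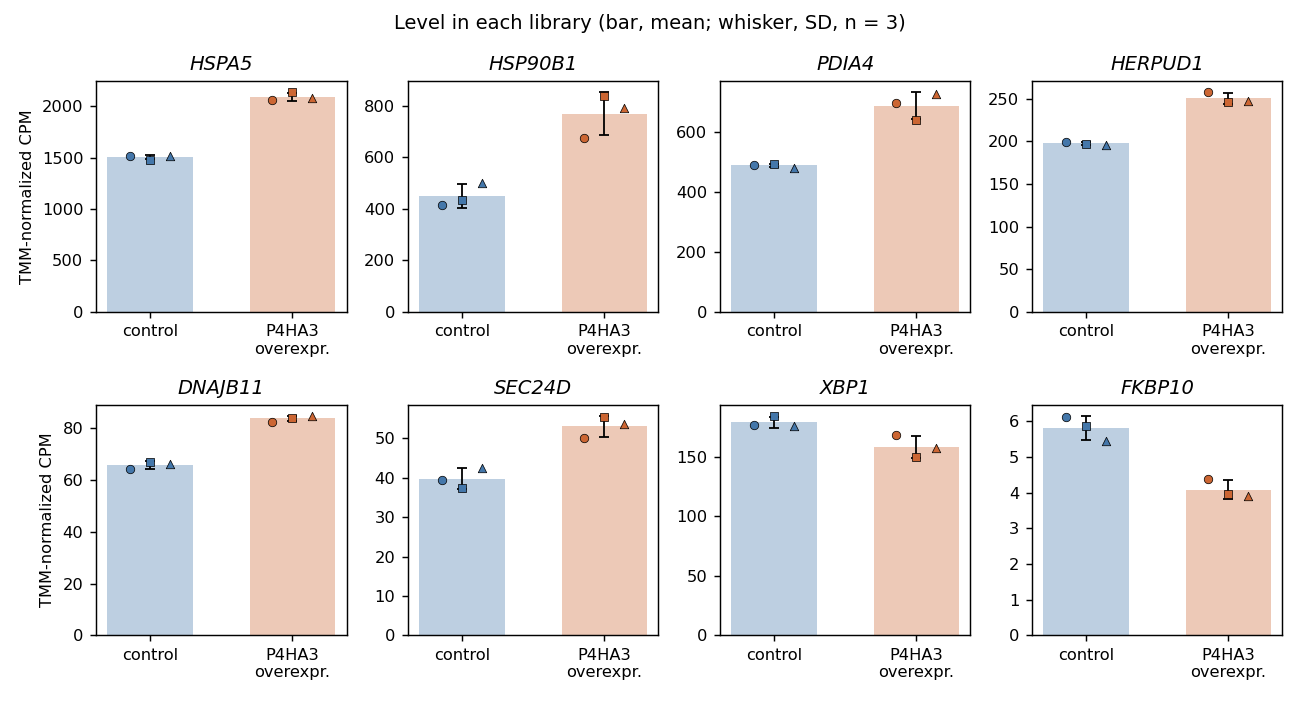
TMM-normalized CPM of 8 of the genes in each library (points; circle, square and triangle for replicates 1, 2 and 3), with the group mean as a bar from 0 and the SD as a whisker (n = 3). The groups do not overlap in any panel, and XBP1 and FKBP10 are the panels in which overexpression lies below control.

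Calnexin (CANX) and calreticulin (CALR) are the lectin chaperones that hold newly glycosylated proteins. CANX was at 709, 687 and 759 CPM in control libraries and at 895, 991 and 964 CPM with overexpression, a rise of 0.40 ± 0.0656 (log2, adjusted p = 0.00427). With the GC content and length correction it was 0.22 (adjusted p = 0.00706). CALR was at 1173, 1211 and 1137 CPM and at 1417, 1237 and 1354 CPM. Its overexpression libraries were all above its control libraries, but replicate 2 only by a small margin. CALR had a log2 fold change of 0.19 (95% interval 0.04 to 0.34, adjusted p = 0.0729) and was not called. With the correction it was 0.30 (adjusted p = 0.000747). It was called without overexpression replicate 2 (adjusted p = 0.0294) and by DESeq2 (adjusted p = 0.0346). It was also called with total counts as the only scaling and without a filter on low counts. CANX and CALR both carry ERSE.

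The J proteins recruit BiP to its substrates. DNAJB11, an abundant cochaperone for nascent chains, was at 64.3, 67.1 and 66.4 CPM and at 82.7, 84.2 and 84.7 CPM. These were among the tightest groups of the list, and the rise was 0.35 ± 0.0539 (log2, adjusted p = 0.00330). DNAJC3, whose product p58IPK also restrains PERK, was at 51.9, 44.7 and 55.9 CPM and at 66.0, 77.4 and 71.6 CPM. It rose by 0.49 ± 0.0894 (adjusted p = 0.00676), and by 0.30 with the correction (adjusted p = 0.00554). DNAJB9, whose product ERdj4 binds BiP to IRE1 and is a known target of spliced XBP1, was at 13.5, 13.8 and 14.1 CPM and at 14.8, 19.5 and 18.3 CPM. Overexpression replicate 1 lay just above the controls. Its log2 fold change was 0.35 ± 0.108 (adjusted p = 0.0457), the weakest call of the 17, and 0.15 with the correction (adjusted p = 0.206). The call was kept only without overexpression replicate 1 (adjusted p = 0.00329) and lost without any other single library (adjusted p up to 0.154). DNAJC10, a disulfide reductase with a J domain, was at 64.7, 68.6 and 77.2 CPM and at 75.0, 111 and 83.7 CPM, with overlapping groups. It was not called, with a log2 fold change of 0.36 (95% interval 0.07 to 0.64) and of 0.03 with the correction. It was called without overexpression replicate 1 (adjusted p = 0.00509) and by DESeq2 (adjusted p = 0.0247). It was also called with the replicate number as a block (adjusted p = 0.00511) and without a filter on low counts.

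The last 4 genes of this group encode smaller or regulatory chaperones. HYOU1, the nucleotide exchange factor GRP170 of BiP, was at 386, 422 and 393 CPM and at 494, 477 and 497 CPM. It rose by 0.29 ± 0.0575 (log2, adjusted p = 0.00982), and the call was lost without control replicate 1 or overexpression replicate 3 (adjusted p up to 0.0662). CRELD2, an ER stress-induced protein with disulfide isomerase activity, was at 129, 137 and 124 CPM and at 182, 144 and 174 CPM. Its rise was 0.36 ± 0.0835 (adjusted p = 0.0170) and 0.59 with the correction. The uncorrected call was lost without control replicate 1, control replicate 2 or overexpression replicate 3 (adjusted p up to 0.0724). MANF, a secreted ER stress factor, was at 144, 145 and 144 CPM and at 163, 149 and 167 CPM. Its control libraries were almost equal and its overexpression libraries all higher, but the log2 fold change of 0.15 (95% interval 0.02 to 0.28) was not called (adjusted p = 0.0889). It was called without overexpression replicate 2 (adjusted p = 0.0448) and with the correction (log2 fold change 0.20, adjusted p = 0.00788). SDF2L1, a cofactor of BiP cycles and a sensitive ER stress gene, was at 79.5, 78.9 and 68.9 CPM and at 79.8, 61.1 and 71.0 CPM. The groups overlapped, with a log2 fold change of -0.10 (95% interval -0.31 to 0.11) that became 0.19 with the correction (adjusted p = 0.0171). HYOU1 and SDF2L1 carry ERSE-II, and CRELD2 carries ERSE.

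Of the 6 oxidoreductases, which form and shuffle disulfide bonds, 2 were higher and 0 lower, against 9.36% and 11.4% of all genes tested. The median log2 fold change of the 6 was 0.21, and 5 had an unadjusted p under 0.05, against 38.7% of all genes. PDIA4, which encodes ERp72, was at 491, 493 and 482 CPM and at 698, 639.8 and 729 CPM. The groups were well separated, and PDIA4 rose by 0.50 ± 0.0625 (log2, adjusted p = 0.00135). PDIA3, which encodes ERp57 and works with calnexin and calreticulin, was at 797, 772 and 795 CPM and at 961, 914 and 936 CPM. Its rise of 0.25 ± 0.0559 (adjusted p = 0.0147) was 0.15 with the correction (adjusted p = 0.0685). The call was also lost without control replicate 1, control replicate 2 or overexpression replicate 3 (adjusted p up to 0.0718). The processed pseudogene PDIA3P1 held 613 to 941 counts per library, so reads may have been divided between the copies.

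The other 4 oxidoreductases were not called. PDIA6, an isomerase that also tempers IRE1, ranged from 504 to 537 CPM in control cells and from 549 to 614 CPM with overexpression, a log2 fold change of 0.16 (95% interval 0.03 to 0.30). ERO1A, which reoxidizes the isomerases, ranged from 87.3 to 98.5 CPM and from 102 to 106 CPM, with a log2 fold change of 0.18 (0.04 to 0.32). Its relative ERO1B ranged from 15.8 to 18.2 CPM and from 18.5 to 21.0 CPM, with a log2 fold change of 0.23 (0.04 to 0.43). In these 3 genes the groups did not overlap, and with the correction the log2 fold changes were 0.12, -0.05 and -0.01. ERO1A was called without control replicate 3 (adjusted p = 0.0286) or overexpression replicate 1 (adjusted p = 0.0364), and ERO1B without overexpression replicate 1 (adjusted p = 0.0298). ERO1A was also called without a filter on low counts, and PDIA6 with total counts as the only scaling. PDIA5 differed least, at 25.0 to 25.5 CPM and 23.3 to 26.3 CPM, with a log2 fold change of -0.01 (-0.17 to 0.16). PDIA6 and ERO1B carry ERSE.

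P4HB, the isomerase that pairs with P4HA3, was at 1029, 1077 and 992 CPM in control libraries and at 1209.6, 1036 and 1125 CPM with overexpression. The groups overlapped, and the log2 fold change was 0.12 (95% interval -0.04 to 0.28, adjusted p = 0.228). With the correction it was 0.28 (adjusted p = 0.00119). P4HA3 mRNA, with a mean of 1954 CPM with overexpression, lay above P4HB, with 1124 CPM, and these 2 means are not scaled by transcript length.

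ERAD withdraws misfolded proteins from the ER for degradation by the proteasome. Of the 9 ERAD genes, 4 were higher and 0 lower (9.36% and 11.4% of all genes tested), with a median log2 fold change of 0.08. The same number, 4, had an unadjusted p under 0.05, a share near the 38.7% of all genes. HERPUD1, a scaffold of the ubiquitin ligase complex and a strongly ER stress-responsive gene, was at 199, 197 and 196 CPM and at 258, 247 and 247 CPM. Its replicates were nearly equal within each group, and it rose by 0.34 ± 0.0503 (log2, adjusted p = 0.00274). Its promoter window carries ERSE-II. SEL1L, the adaptor of the ligase HRD1, was at 73.5, 74.4 and 79.8 CPM and at 96.0, 117 and 97.7 CPM. It rose by 0.45 ± 0.0810 (adjusted p = 0.00675), and by 0.21 with the correction (adjusted p = 0.0101). The uncorrected call was lost without control replicate 2 (adjusted p = 0.0554). EDEM1, a mannosidase-like protein that marks glycoproteins for disposal, was at 49.8, 47.0 and 52.9 CPM and at 55.3, 62.5 and 59.4 CPM. The margin between its groups was small, and its rise was 0.24 ± 0.0706 (adjusted p = 0.0366) and 0.14 with the correction (adjusted p = 0.0498). The call was kept without control replicate 3 or overexpression replicate 1 and lost without any of the other 4 libraries (adjusted p up to 0.150).

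DERL3, a channel protein and known ER stress target, was the least abundant of the list by length, at 5.46, 4.98 and 5.76 CPM and at 8.85, 7.12 and 7.29 CPM. It rose by 0.52 ± 0.122 (log2, adjusted p = 0.0176), and the call was lost without control replicate 1, control replicate 2 or overexpression replicate 3 (adjusted p up to 0.0952). Of its exon bases, 77.0% lie opposite exons of SMARCB1 on the other strand, and the strand setting of the counting is not given, so its counts are uncertain. SMARCB1 had a log2 fold change of -0.07 (adjusted p = 0.391).

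The other 5 ERAD genes were not called and lay within 0.08 of 0 on the log2 scale. SYVN1, which encodes HRD1 itself, ranged from 47.1 to 52.1 CPM in control cells and from 51.1 to 53.8 CPM with overexpression, with a log2 fold change of 0.08 (95% interval -0.06 to 0.22) and of 0.25 with the correction (adjusted p = 0.00896). The lectin OS9 had a log2 fold change of 0.05 (-0.07 to 0.17) and of 0.16 with the correction (adjusted p = 0.0126), and 32.5% of its exon bases are shared with other genes. The derlins DERL1 and DERL2, with log2 fold changes of 0.05 (-0.07 to 0.18) and 0.04 (-0.09 to 0.17), and the selenoprotein SELENOS, with 0.00 (-0.13 to 0.13), were not called with or without the correction. SEL1L was called higher and its partner SYVN1 was not, and the difference between them was not tested.

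Among the sensors and transcription factors, 1 of 4 was higher and 0 were lower (9.36% and 11.4% of all genes tested). Of the 4, 2 had an unadjusted p under 0.05, against 38.7% of all genes. ATF6, the sensor that becomes a transcription factor, was at 98.0, 93.5 and 97.5 CPM and at 112, 114 and 112 CPM. Both groups were tight, and it rose by 0.23 ± 0.0519 (log2, adjusted p = 0.0158). With the correction its log2 fold change was 0.04 (adjusted p = 0.750), and the uncorrected call was lost without control replicate 1, control replicate 2 or overexpression replicate 3 (adjusted p up to 0.0772). XBP1, whose total mRNA is counted here whether spliced or not, was at 177, 184 and 175 CPM and at 168, 149.9 and 157 CPM. Every overexpression library was below every control library. Its log2 fold change of -0.18 (95% interval -0.31 to -0.05) fell just short of the threshold (adjusted p = 0.0554), was called without overexpression replicate 1 (adjusted p = 0.0111), and was -0.14 with the correction (adjusted p = 0.0376). It was also called lower with total counts as the only scaling. XBP1 carries ERSE, as do HSPA5, HSP90B1, CANX and CRELD2, which rose.

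ERN1, which encodes IRE1, was at 17.5, 17.9 and 19.7 CPM and at 17.3, 20.6 and 17.6 CPM. The groups covered the same range, with a log2 fold change of 0.01 (95% interval -0.20 to 0.22). EIF2AK3, which encodes PERK, was at 16.3, 16.0 and 19.1 CPM and at 17.9, 20.1 and 18.9 CPM. Its groups overlapped, with a log2 fold change of 0.15 (-0.07 to 0.36). The interval of ERN1 leaves room for a change about as large as the rise of ATF6, and that of EIF2AK3 for a larger rise.

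SEC24D, a cargo-binding subunit of the COPII coat that carries procollagen and other proteins out of the ER, was at 39.4, 37.5 and 42.6 CPM and at 50.1, 55.5 and 53.6 CPM. The groups were clearly apart, and it rose by 0.41 ± 0.0717 (log2, adjusted p = 0.00576). SEC61B, a subunit of the channel through which proteins enter the ER, ranged from 93.8 to 108 CPM and from 97.3 to 117 CPM. Its groups overlapped, and its log2 fold change was 0.08 (95% interval -0.09 to 0.25).

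The prolyl isomerases FKBP10 and FKBP14, both of which act on collagens in the ER, moved in opposite directions. FKBP10, which encodes FKBP65, was at 6.12, 5.87 and 5.43 CPM and at 4.38, 3.96 and 3.90 CPM. It was the only gene of the 35 called lower, by -0.51 ± 0.115 (log2, adjusted p = 0.0154), and stood at -0.32 with the correction (adjusted p = 0.0540). FKBP14, which encodes FKBP22, was at 33.3, 29.9 and 34.6 CPM and at 37.1, 41.9 and 39.3 CPM. It rose by 0.27 ± 0.0791 (adjusted p = 0.0355), and with the correction its log2 fold change was 0.06 (adjusted p = 0.496). The call of FKBP10 was lost without control replicate 1, control replicate 2 or overexpression replicate 3 (adjusted p up to 0.0762), and that of FKBP14 without any of these or overexpression replicate 2 (adjusted p up to 0.146).

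The promoter elements were found on both sides of the threshold. Of the genes in the promoter set, 6 of the 13 called higher (46.2%) and 5 of the 16 not called (31.2%) carry ERSE or ERSE-II. The 6 were HSPA5, HSP90B1, CANX, CRELD2, HYOU1 and HERPUD1, and the 5 were CALR, PDIA6, ERO1B, SDF2L1 and XBP1. Among all genes in the promoter set, 0.161% carry either element.

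The rest of the ER machinery was described with 89 genes of the same pathways that were not on the list, of which 87 were tested and PDIA2 and FKBP2 were not. Of the 87, 21 were higher and 6 lower, with a median log2 fold change of 0.08, against 17 higher, 1 lower and 0.23 for the 35. In either direction 31% of the 87 were called, against 20.8% of all genes tested (9.36% higher and 11.4% lower). The median SE of the 87 was 0.07, against 0.10 over all genes. Among all genes that averaged 10 CPM or more, 13.5% were higher and 13.3% lower. The share called was 31% of other folding, 31.6% of other ERAD, 30.4% of translocation and export and 33.3% of other sensing genes. Among other folding genes, 6 of 29 were higher, led by CALU, a calcium-binding protein of the secretory pathway, which had a log2 fold change of 0.40 ± 0.0588 (adjusted p = 0.00277) and of 0.22 with the correction. Of the same genes 3 were lower, led by SIL1, an exchange factor of BiP, with -0.29 ± 0.0926 (adjusted p = 0.0468). The groups of SIL1 overlapped, and it stood at -0.10 with the correction (adjusted p = 0.224). Among other ERAD and glycosylation genes, 5 of 19 were higher and 1 lower, with STT3B, a catalytic subunit of the oligosaccharyltransferase, at 0.35 and EDEM2 at -0.31, and at 0.18 and -0.19 with the correction. Of 23 other translocation and export genes, 7 were higher and 0 lower. An unadjusted p under 0.05 was found in 11 of the 23, against 38.7% of all genes tested. Another COPII subunit, SEC24A, led the 23 with a log2 fold change of 0.41 ± 0.0943 (adjusted p = 0.0157), which was 0.19 with the correction. Of 9 other sensing genes, 2 were higher and 1 lower, with the ER-tethered transcription factor CREB3L2 at 0.25 and the IRE1 adaptor TRAF2 at -0.23. TRAF2 was at -0.01 with the correction (adjusted p = 0.924). The call of CALU held with each library left out. Those of SIL1, STT3B, EDEM2, SEC24A, CREB3L2 and TRAF2 were lost without control replicate 1 or control replicate 2, all but that of STT3B also without overexpression replicate 3, and those of SIL1, EDEM2, CREB3L2 and TRAF2 also without overexpression replicate 2 (adjusted p up to 0.191).

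The output of the PERK branch was described with 7 genes. Of these, 1 was higher and 1 lower, against 9.36% and 11.4% of all genes tested. An unadjusted p under 0.05 was found in 5 of the 7, against 38.7% of all genes. The median log2 fold change of the 7 was 0.19. With the correction 4 were higher and 1 lower (10.6% and 7.94% of all genes), with a median of 0.25. ATF4, which is regulated mainly by translation, was at 214, 229 and 227 CPM in control libraries and at 224, 218 and 212 CPM with overexpression, and its log2 fold change of -0.04 ± 0.0534 was not called (adjusted p = 0.641). DDIT3, which encodes the stress transcription factor CHOP, was at 5.26, 5.44 and 5.43 CPM and at 6.74, 7.87 and 7.53 CPM. It rose from a low level by 0.46 ± 0.107 (log2, adjusted p = 0.0172), and the call was lost without control replicate 1, control replicate 2 or overexpression replicate 3 (adjusted p up to 0.0776). Of the 1307 exon bases of DDIT3, 413 lie opposite exons of other genes and 105 are shared with another gene on the same strand. The strand setting of the counting is not given, so its counts are uncertain. TRIB3, a target of ATF4 and CHOP, was at 56.4, 54.4 and 52.1 CPM and at 45.0, 40.0 and 40.0 CPM. It fell by 0.38 on the log2 scale (SE 0.0700, adjusted p = 0.00703), without overlap between the groups. With the correction it was -0.16 (adjusted p = 0.0460), and the uncorrected call was lost without control replicate 2 (adjusted p = 0.0502).

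The count of 17 depended on single libraries. Leaving out control replicate 1, control replicate 2 or overexpression replicate 3 brought it to 9 in each case, while the share of all genes called higher was 1.49%, 1.06% and 1.79%. It was 17 without control replicate 3, 20 without overexpression replicate 1 and 16 without overexpression replicate 2, with 9.08%, 18.3% and 5.75% of all genes called higher. In the first 3 of these fits 0 of the 35 genes were called lower by edgeR (3.6%, 2.41% and 4.1% of all genes), and 2 had a negative change with an unadjusted p under 0.05 in each. In the last 3 fits 1, 2 and 1 were called lower (11.7%, 17.6% and 8.59% of all genes). On all libraries, DESeq2 called 19 higher and 1 lower (11.8% and 12.2% of all genes it tested), and limma-voom called 16 and 1 (8.9% and 11.3%). At an adjusted p under 0.01, 10 of the 35 were higher and 0 lower by edgeR, against 1.46% and 3.35% of all genes. HSPA5, HSP90B1, CANX, PDIA4, DNAJB11, DNAJC3, HERPUD1 and SEC24D were called higher in all 16 alternative fits. All 17 genes had a positive log2 fold change in every one of these fits.

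**Figure D4:**
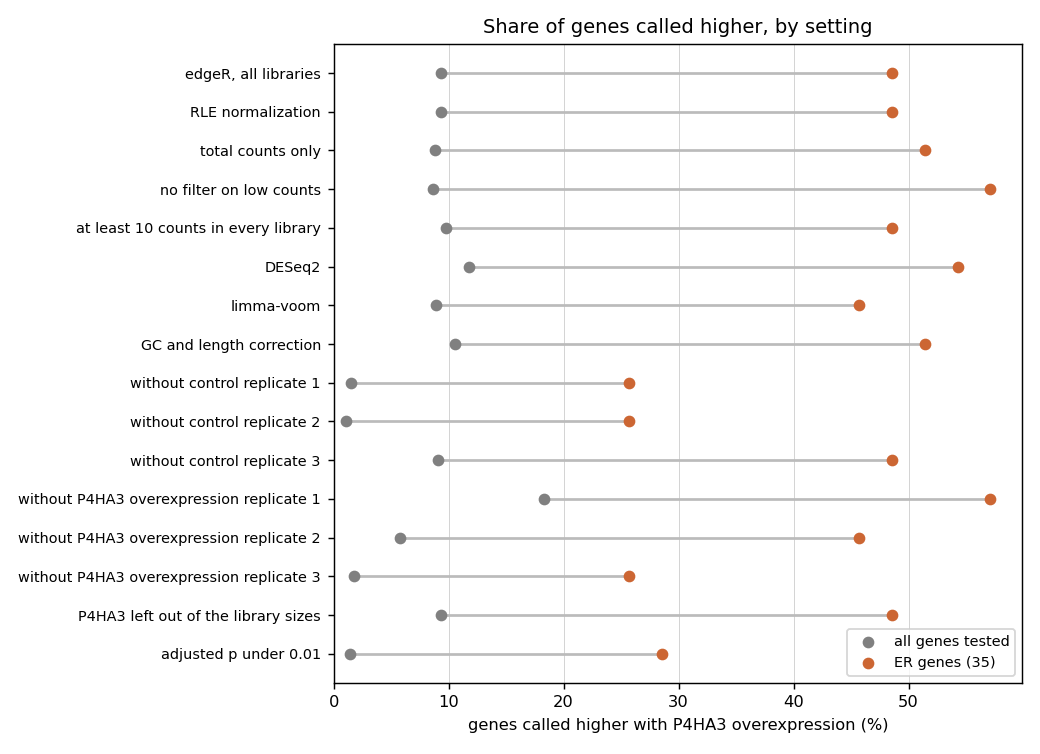
Share of genes called higher with P4HA3 overexpression (horizontal axis, %) among the 35 ER genes (orange) and among all genes tested (grey), for the edgeR fit on all libraries and for other settings (vertical axis). The share of ER genes runs from 25.7% to 57.1% and lies to the right of that of all genes in each setting shown.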

How the data were processed

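The authors deposited raw read counts per gene for 60664 Ensembl genes in 6 libraries, 1 column each and not normalized. Per the supplementary methods they purified poly-A RNA, made strand-marked libraries, aligned reads to GRCh38 with an Ensembl annotation using STAR, and counted with HTSeq. The submitters' processing notes name HISAT2 instead. The versions of these tools, the strand setting and the treatment of reads with several matches are not given in the sources used here.

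Counts were filtered with filterByExpr (minimum count 10), normalized by TMM and tested by the two-sided quasi-likelihood test of edgeR 4.0.16 (glmQLFit, glmQLFTest) in R 4.3.3. P-values were adjusted by Benjamini-Hochberg over 15130 genes, and an adjusted p under 0.05 made a call. SE and 95% intervals are those of the fitted log2 fold change. CPM values are TMM-normalized. Symbols, GC content and exons came from GENCODE 44, which matched 60463 of the identifiers. The GC content and length offset was fitted per library with mgcv 1.9.3. Alternatives were DESeq2 1.42.0, limma-voom (limma 3.58.1), other scalings and filters, a replicate block and each library left out. The scripts were tested on simulated data. Within each group, libraries differed beyond sampling noise (chi-square per degree of freedom 4.79 to 16.2). At these depths 1 CPM is a little over 20 counts.

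The members and gene lists were chosen with earlier results of these data known. Values per library are given for every called member, for a fixed set of 14 chaperone, oxidoreductase, ERAD and sensor genes and, chosen after its values were seen, for DNAJC10. Outside the list, P4HA3, P4HB, DDIT3, ATF4 and the largest called rise and fall of each other list (at least 1 CPM) are named, with SMARCB1, PDIA3P1 and the markers named where a value bears on a result. The authors' FPKM values were not used.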

Additional observations from a re-analysis of the deposited data

How the results depend on the processing

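Among all genes, the count called higher (1416) became 2384 without a filter on low counts, 221 at an adjusted p under 0.01 and 163 to 2814 with 1 library left out, and the count called lower (1731) became 507 and 371 to 2716 under the last 2 of these. Of the 35 genes, 10 were higher and 0 lower at an adjusted p under 0.01, and with 1 library left out 9 to 20 were higher and 0 to 2 lower. With total counts as the only scaling 2 were lower, against 11.1% of all genes. The median log2 fold change was 0.15 with the GC content and length correction and 0.21 to 0.26 with 1 library left out. Of the 87 other ER genes tested, 3 were higher and 1 lower at an adjusted p under 0.01, against 1.46% and 3.35% of all genes. With 1 library left out, 3 to 28 of them were higher and 0 to 12 lower, against 1.06% to 18.3% and 2.41% to 17.6% of all genes. The correction turned the log2 fold changes of SDF2L1 to 0.19, PRKCSH to 0.16 and MARCHF6 to -0.15, and the cause was not tested. Same-numbered libraries had deviations that correlated at 0.25, -0.05 and 0.03, and not every library correlated best with its own number. The deviations also followed GC content to differing degrees between libraries, so they do not settle whether the numbers pair the samples. With the replicate number as a block, 2138 of all genes were higher and 2175 lower (14.1% and 14.4%), and 18 and 1 of the 35. With the block and the correction together, 2136 of all genes were higher and 1657 lower (14.1% and 11%), and 21 of the 35 were higher (60.0%) and 1 lower. In that fit 10 of the 87 other ER genes tested were lower, against 11% of all genes. The median of the 35 was then 0.15, and SDF2L1, PRKCSH and MARCHF6 were at 0.19, 0.16 and -0.15.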
